A study of Mus musculus with 12 samples.

Results

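The p53 feedback loop was followed in mouse embryonic fibroblasts (MEFs) under DNA damage through the RNA of 7 genes, Trp53 and 6 regulators of its protein (Mdm2, Mdm4, Rchy1, Usp7, Ppm1d and Ccng1). The genes were taken by symbol (TRP53, MDM2, MDM4, RCHY1, USP7, PPM1D and CCNG1, which the deposited table writes in capitals) from the 16425 genes listed there, and all 7 were among the 14440 genes that passed the filter on low values. The libraries came from wild-type MEFs infected with a guide RNA aimed at the p53 response element in Pvt1 (labelled sg10, called the Pvt1 guide here) or with a non-targeting control guide (labelled sgtom). All 6 libraries came from cells kept for 24 h in 0.5 µM doxorubicin, a drug that breaks DNA and activates p53, with 3 replicates for each guide. The series also lists 6 untreated samples, which were not analysed here, so how doxorubicin itself moves these genes cannot be given. No label used here says how an infected culture was selected, whether it was a pool or a clone, or what a replicate number marks.

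p53, the product of Trp53, is a transcription factor that DNA damage stabilises, and it switches on several genes whose products then limit p53 itself. Mdm2 is the ubiquitin ligase that marks p53 for degradation, and Mdm4 is its relative, which binds p53, masks its activation domain and works in a complex with Mdm2. Rchy1, also called Pirh2, is another p53-induced ubiquitin ligase, while Usp7 removes ubiquitin from both p53 and Mdm2. Ppm1d, also called Wip1, is a phosphatase that takes damage-induced phosphates off p53 and its kinases, and Ccng1 (cyclin G1) brings the phosphatase PP2A to Mdm2.

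The promoter windows of these genes are shown because p53 acts on several of them through DNA. RefSeq (GRCm38.p6) gave 9 windows for the 7 genes, each from 250 bases before to 50 after a transcription start. The p53 decamer consensus, the repeat unit of a p53 response element and its own reverse complement, was searched by exact match. It was present in 5 of the 9 windows, at Trp53, Mdm2, Ppm1d, Ccng1 and 1 of the 2 starts of Rchy1, and in 8.36% of all 32851 windows in that table. In the Ccng1 window the match was the second unit of a pair that adjoins without a spacer and fits the doubled consensus at 19 of 20 bases, which held for 0.0883% of all windows. The whole Ccng1 window (chr11:40755237-40755536, minus strand) and 80-base stretches around the match at Mdm2 (chr10:117710900-117710979, minus strand), Ppm1d (chr11:85311087-85311166, plus strand), Trp53 (chr11:69580249-69580328, plus strand) and Rchy1 (chr5:91962602-91962681, minus strand) read as follows, 5′ to 3′ on the gene's strand. Capitals mark the decamer or, at Ccng1, both adjoining units.
Ccng1: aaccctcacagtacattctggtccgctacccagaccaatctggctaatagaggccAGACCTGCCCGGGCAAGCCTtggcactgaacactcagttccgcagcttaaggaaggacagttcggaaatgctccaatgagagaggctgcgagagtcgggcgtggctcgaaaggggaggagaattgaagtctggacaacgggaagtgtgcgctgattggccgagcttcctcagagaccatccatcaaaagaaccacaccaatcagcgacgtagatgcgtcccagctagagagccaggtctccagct
Mdm2: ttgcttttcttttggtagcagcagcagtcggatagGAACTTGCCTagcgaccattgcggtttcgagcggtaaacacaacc
Ppm1d: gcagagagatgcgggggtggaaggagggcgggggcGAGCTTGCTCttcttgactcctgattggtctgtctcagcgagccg
Trp53: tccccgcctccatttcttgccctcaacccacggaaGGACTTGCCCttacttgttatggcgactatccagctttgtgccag
Rchy1: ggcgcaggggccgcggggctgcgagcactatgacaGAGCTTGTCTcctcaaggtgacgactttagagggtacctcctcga
The capitals began at position −195 of the start at Ccng1, −186 at Mdm2, −132 at Ppm1d, −75 at Trp53 and −90 at the Rchy1 start, with the start counted as 0. These are matches of letters and not mapped binding sites. No window of Mdm4 or Usp7 held the decamer, and the windows of Usp7, of 1 of the 2 Mdm4 starts and of the Rchy1 start shown lie inside their genes as annotated by GENCODE. The well-known response elements of Mdm2 lie in its first intron, outside the window shown.

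The targeted gene checked the labels. Levels are in CPM (read counts scaled per library, as deposited), in the order of replicates 1 to 3. Pvt1 stood at 8.04, 5.93 and 5.40 CPM with the Pvt1 guide and at 16.4, 11.7 and 12.1 CPM with the control guide. The log2 fold change was −0.999 (limma adjusted p = 1.40e-04 with the replicate number as a block, 1.0 without it). Pvt1 had a false discovery rate of 0.224 in the authors' deposited table. Its neighbour Myc, a proto-oncogene, stood at 43.5, 48.6 and 53.8 CPM with the Pvt1 guide and at 28.7, 27.0 and 35.6 CPM with the control guide, a log2 fold change of 0.67 (limma adjusted p = 5.49e-04 with the block, 1.0 without it, and a false discovery rate of 0.224 in the authors' deposited table). Libraries held 50091418 to 66132317 reads in genes. Fibroblast markers summed to 15726 to 18092 CPM over 9 markers with the Pvt1 guide and 15611 to 17865 CPM with the control guide. The sum rested mainly on Col1a1, Vim and Col1a2, with means of 7910, 4853 and 3105 CPM over all libraries. Other markers of the list were far lower, with Col3a1 at 569, Thy1 at 335, Pdgfrb at 151, Pdgfra at 33.4, Dcn at 21.3 and Lum at 11.3 CPM. Lum went from 22.7 CPM in replicate 1 to 4.21 in replicate 3 with the Pvt1 guide, and from 20.6 to 5.35 with the control guide. Thy1 went the other way, from 222 to 371 and from 190 to 409 CPM. Pdgfra stood at 29.6, 30.2 and 31.4 CPM with the Pvt1 guide and at 37.7, 32.0 and 39.2 with the control guide (limma adjusted p = 0.538 with the block). Macrophage markers summed to 90.1 to 287 CPM with the Pvt1 guide and 97.5 to 183 CPM with the control guide, with the highest sum of each guide in replicate 1. Endothelial, epithelial, muscle, and neural and glial markers summed to between 38.3 and 258 CPM per list and library. In bulk samples, fewer cells that express a gene and less RNA per cell cannot be told apart.

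Levels of the 7 genes differed far more from each other than between guides. Per kilobase of annotated exon, with the exons of all transcripts merged, the order from high to low over the 6 libraries was Ccng1 (432 CPM per kb), Mdm2 (117), Trp53 (40.9), Rchy1 (16.9), Usp7 (12.8), Ppm1d (7.02) and Mdm4 (3.2). The ranges of neighbours in this order did not overlap, for instance 390 to 500 CPM per kb for Ccng1 and 102 to 129 for Mdm2. Merged exons understate the level of a gene with many transcript forms. With the length of the longest annotated principal transcript in its place, the order was the same, but Ppm1d (6.92 to 8.71 CPM per kb) and Mdm4 (5.79 to 8.02) overlapped. By reads, without regard to length, only 35 of the tested genes averaged more CPM than Ccng1 and 171 more than Mdm2.

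**Figure D1:**
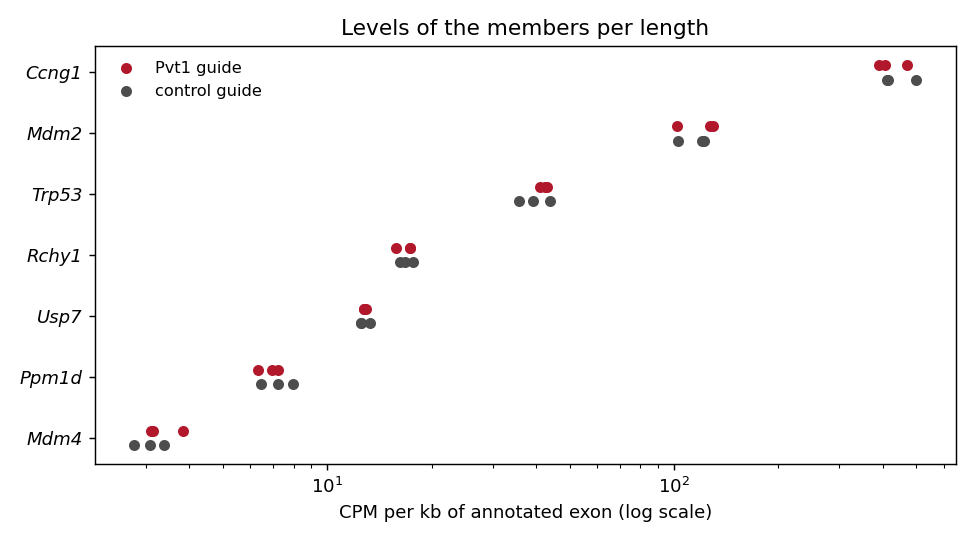
Levels of the 7 genes in CPM per kb of annotated exon on a log axis, 1 point per library, with the Pvt1 guide in red above the control guide in grey. Ccng1 lies highest at 390 to 500 CPM per kb and Mdm4 lowest at 2.78 to 3.85, and the guides overlap for each gene.

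The comparison asked how RNA levels under doxorubicin differ when the p53 response element of Pvt1 is targeted. None of the 7 genes had an adjusted p under 0.05 (Benjamini-Hochberg) in limma, an empirical Bayes linear model fitted to log2(CPM + 0.5) of all 14440 genes, where 0% of genes passed. None passed with the replicate block either, where 0.0346% of genes passed. Log2 fold changes of the 7 genes, Pvt1 guide over control guide, ran from −0.08 to 0.12 with a median of 0.00, and 4 lay above and 3 below 0. Over all tested genes the median was 0.00 and the median size of a change 0.05. No gene of the 7 had values that parted the guides completely, as held for 3.61% of tested genes.

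**Figure D2:**
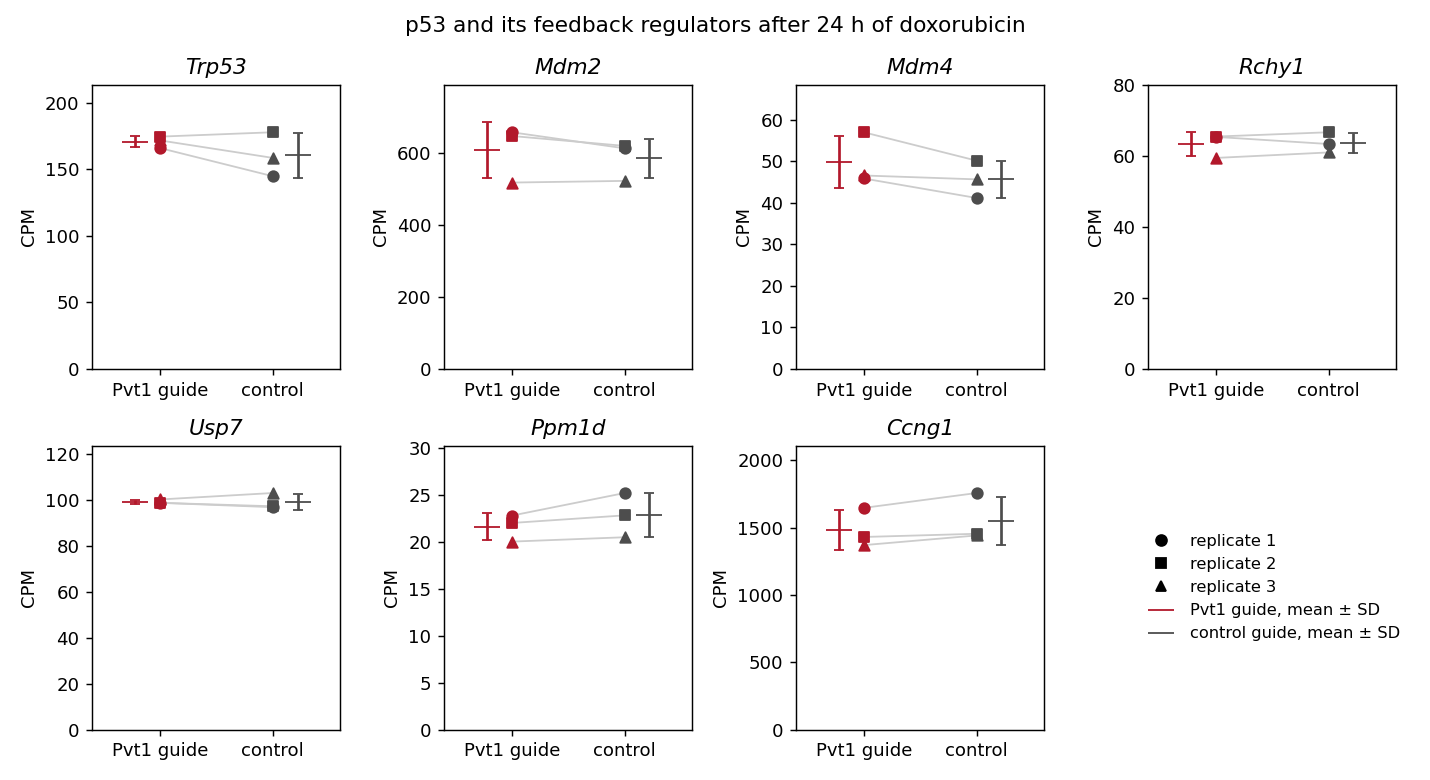
CPM of each gene in each library, with the Pvt1 guide left of the control guide, lines joining equal replicate numbers, marker shapes giving the replicate, and bars showing mean ± SD (n = 3 each). The axes start at 0, the guides overlap in every panel, and for most genes the spread between replicates exceeds the step between guides, as for Mdm2 (517 to 657 CPM with the Pvt1 guide, 522 to 619 CPM with the control guide).

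Trp53 (ENSMUSG00000059552.13, chr11:69580359-69591873, plus strand, mm10), the gene of p53 itself, stood at 166, 174 and 172 CPM with the Pvt1 guide and at 145, 178 and 159 CPM with the control guide. The control library of replicate 2 was the highest of the 6 and that of replicate 1 the lowest. The mean was 171 ± 4.37 CPM with the Pvt1 guide and 160 ± 16.6 CPM with the control guide (SD, n = 3 each), a log2 fold change of 0.09 (SE 0.0845, limma adjusted p = 1.0). The 95% interval of that change reached from 0.927-fold to 1.23-fold. In the blocked fit the unadjusted p was 0.0463, and Trp53 did not pass over all genes (limma adjusted p = 0.738). Without replicate 2, whose pair went the other way (0.982-fold, against 1.15-fold and 1.08-fold in the pairs of replicates 1 and 3), the blocked fit did call it higher (log2 fold change 0.16, limma adjusted p = 0.0251). That fit rested on 4 libraries and called 1.11% of genes. Without replicate 1 or 3 the blocked limma adjusted p was 0.918 and 0.998.

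Mdm2 (ENSMUSG00000020184.15, chr10:117688875-117710758, minus strand), the ligase of the loop, stood at 657, 646 and 517 CPM with the Pvt1 guide and at 612, 619 and 522 CPM with the control guide. Replicate 3 was the lowest for both guides, and the guides overlapped. The means of 607 ± 77.8 CPM with the Pvt1 guide and 584 ± 54.2 CPM with the control guide (SD, n = 3 each) gave a log2 fold change of 0.05 (SE 0.122, limma adjusted p = 1.0). Its interval of 0.845-fold to 1.27-fold narrowed to 0.983-fold to 1.09-fold in the blocked fit (limma adjusted p = 0.811).

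Mdm4 (ENSMUSG00000054387.13, chr1:132959484-133030561, minus strand), the partner of Mdm2, stood at 45.8, 57.0 and 46.6 CPM with the Pvt1 guide and at 41.1, 50.1 and 45.6 CPM with the control guide. Replicate 2 was highest for both guides, and Mdm4 was higher with the Pvt1 guide in 3 of 3 pairs of equal replicate number (1.11-fold, 1.14-fold and 1.02-fold), as were 14.4% of tested genes. The mean was 49.8 ± 6.22 CPM with the Pvt1 guide and 45.6 ± 4.49 CPM with the control guide (SD, n = 3 each), a log2 fold change of 0.12 (SE 0.112, limma adjusted p = 1.0). Its interval was 0.902-fold to 1.31-fold without the block, and 1.02-fold to 1.16-fold in the blocked fit before adjustment for 14440 genes. In the blocked fit its unadjusted p of 0.0140 ranked 291 among 14440 genes, and the adjusted p was 0.678. In fits without the block, the log2 fold change was 0.022 without the Pvt1 guide's replicate 2 and 0.050 without the control guide's replicate 1. Each of those fits kept the partner of equal replicate number, so replicate differences enter these values. With a whole replicate number left out, the blocked fit gave 0.11 without replicate 1, 0.092 without replicate 2 and 0.17 without replicate 3. Mdm4 and Trp53 were the only 2 of the 7 with an unadjusted p under 0.05 in the blocked fit of all libraries, where 6.68% of genes were under it. Without the block 0 of the 7 were, against 0.346% of genes.

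Rchy1 (ENSMUSG00000029397.15, chr5:91948904-91963068, minus strand), the other p53-induced ligase here, stood at 65.4, 65.5 and 59.5 CPM with the Pvt1 guide and at 63.4, 66.7 and 61.0 CPM with the control guide. The log2 fold change was −0.01 (SE 0.0650, limma adjusted p = 1.0), with an interval of 0.893-fold to 1.11-fold. In the blocked fit the interval was 0.942-fold to 1.05-fold. The guides overlapped, and replicate 3 was the lowest for both guides. Exons of Rchy1 share 18% of their bases with Thap6 on the opposite strand, and the strand setting of the counting is not given in the sources used here, so counts from those bases are uncertain.

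Usp7 (ENSMUSG00000022710.17, chr16:8689595-8792308, minus strand), the deubiquitinase, was the steadiest gene of the set. Its values were 98.9, 98.9 and 100.3 CPM with the Pvt1 guide and 97.0, 97.4 and 103 CPM with the control guide, a coefficient of variation of 2.27% over 6 libraries. The median over 7065 tested genes with a mean of at least 20 CPM was 6.76%. The log2 fold change was 0.00 (SE 0.0514, limma adjusted p = 1.0), with an interval of 0.920-fold to 1.09-fold. In the blocked fit the interval was 0.952-fold to 1.06-fold.

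Ppm1d (ENSMUSG00000020525.17, chr11:85311244-85347066, plus strand), the phosphatase, was the least abundant by CPM, resting on 1231 to 1511 reads per library. It stood at 22.8, 22 and 20.1 CPM with the Pvt1 guide and at 25.2, 22.9 and 20.5 CPM with the control guide. It was lower with the Pvt1 guide in 3 of 3 pairs (0.905-fold, 0.965-fold and 0.977-fold), as were 14.4% of tested genes. The log2 fold change was −0.08 (SE 0.0961, limma adjusted p = 1.0, and 0.811 in the blocked fit).

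Ccng1 (ENSMUSG00000020326.7, chr11:40748552-40755311, minus strand), the PP2A-recruiting cyclin, stood at 1646, 1430 and 1370 CPM with the Pvt1 guide and at 1757, 1454 and 1442 CPM with the control guide. Replicate 1 was highest for both guides. Ccng1 was lower with the Pvt1 guide in 3 of 3 pairs (0.937-fold, 0.984-fold and 0.95-fold), as were 14.4% of tested genes. The mean was 1482 ± 145 CPM with the Pvt1 guide and 1551 ± 178 CPM with the control guide (SD, n = 3 each), a log2 fold change of −0.06 (SE 0.117, limma adjusted p = 1.0). The blocked interval ran from 0.910-fold to 1.01-fold (limma adjusted p = 0.748).

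**Figure D3:**
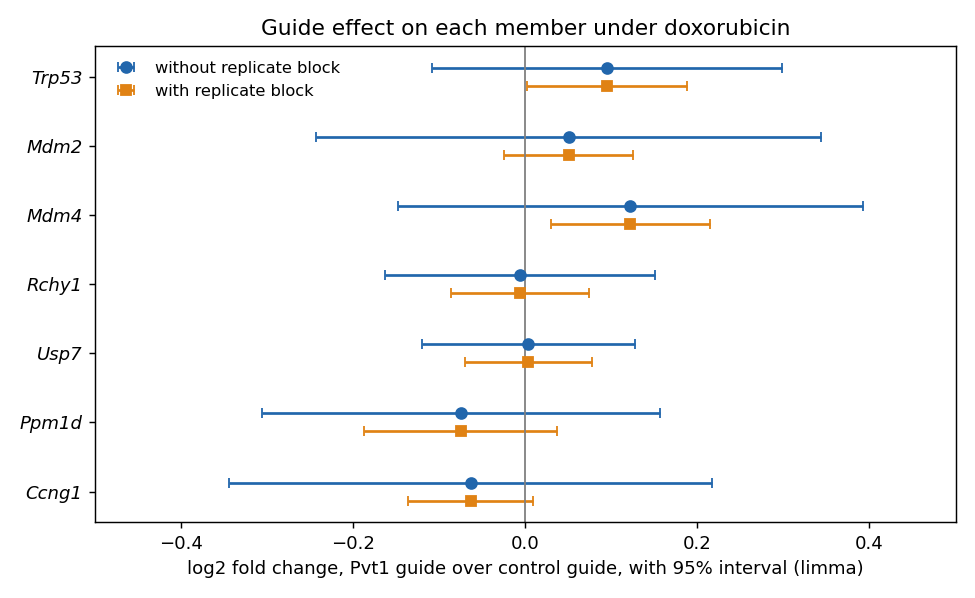
Log2 fold change of each gene, Pvt1 guide over control guide, with its 95% interval from limma without (blue circles) and with (orange squares) the replicate block. Intervals without the block cross 0 for all 7 genes, and with it those of Trp53 and Mdm4 lie above 0 before adjustment for 14440 genes.

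In the authors' deposited table, which compares the same 6 libraries, log2 fold changes of the 7 genes ran from −0.08 for Ppm1d to 0.13 for Mdm4. The authors' deposited table gives unadjusted p-values from 0.406 to 0.983 and a false discovery rate of 1 for each of the 7.

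Because the proteins of the loop act on each other, 6 ratios of CPM within a library were compared by two-sided exact permutation tests, in which 3 against 3 libraries cannot give p below 0.10. The ratio of Mdm2 to Trp53 was 3.96, 3.7 and 3.01 with the Pvt1 guide and 4.23, 3.48 and 3.29 with the control guide (exact permutation p = 0.80). The ratio of Mdm4 to Mdm2 was 0.0826 ± 0.0112 with the Pvt1 guide and 0.0785 ± 0.0103 with the control guide (SD, n = 3 each, exact permutation p = 0.50), higher with the Pvt1 guide in 3 of 3 pairs. In both ratios the libraries of the guides overlapped. Ppm1d to Trp53 was 0.127 ± 0.0104 with the Pvt1 guide and 0.144 ± 0.0262 with the control guide (SD, n = 3 each, exact permutation p = 0.40), lower in 3 of 3 pairs. Ccng1 to Trp53 was 8.70 ± 1.06 with the Pvt1 guide and 9.80 ± 2.07 with the control guide (SD, n = 3 each, exact permutation p = 0.60). Those are the ratios of the phosphatase-linked genes to p53 RNA. Ccng1 to Mdm2 was 2.46 ± 0.222 with the Pvt1 guide and 2.66 ± 0.275 with the control guide (SD, n = 3 each, exact permutation p = 0.40). Usp7 to Mdm2 was 0.166 ± 0.0244 with the Pvt1 guide and 0.171 ± 0.0230 with the control guide (SD, n = 3 each, exact permutation p = 0.50). Ccng1 to Mdm2 and Usp7 to Mdm2 were also lower with the Pvt1 guide in 3 of 3 pairs. So 4 of the 6 ratios, which share genes, had the same sign in all 3 pairs, each with an exact sign-flip p of 0.25, the smallest that 3 pairs allow. Adjusted over the 6 ratios, p was between 0.72 and 0.80, and the guides overlapped in each ratio.

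**Figure D4:**
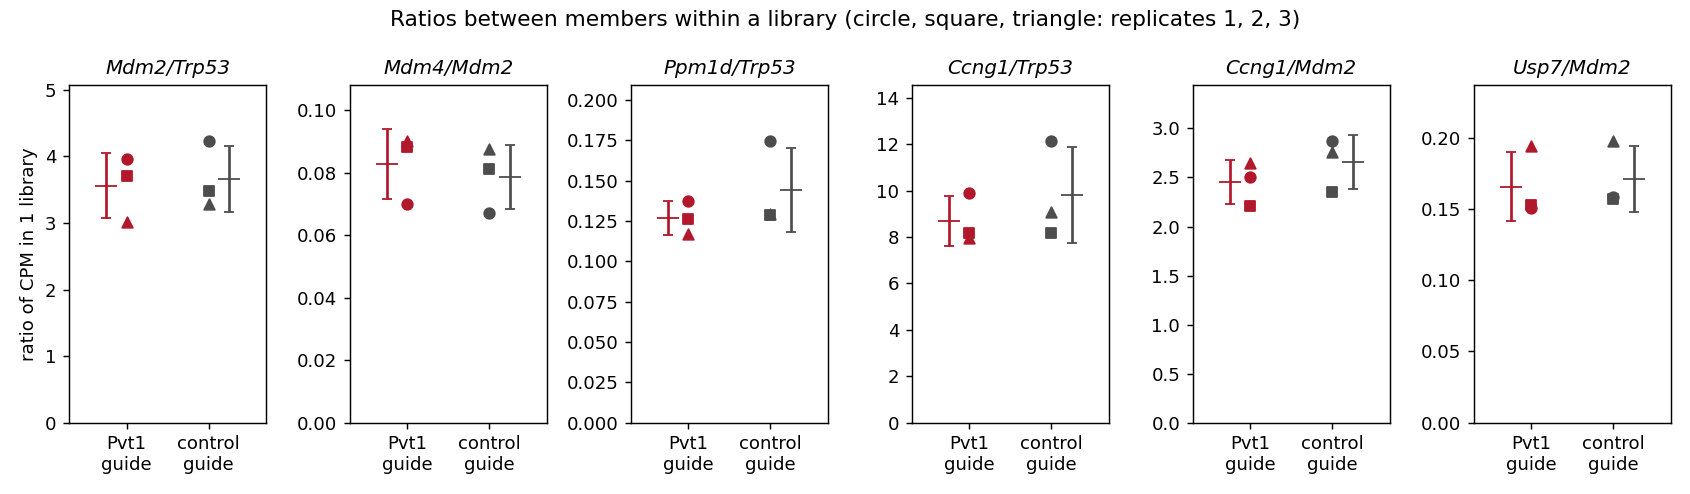
Ratios of CPM between 2 genes of the set within a library, with the Pvt1 guide left of the control guide, marker shapes giving replicates 1 to 3 and bars showing mean ± SD (n = 3 each). The axes start at 0. The guides overlap in all 6 ratios, such as Mdm2 to Trp53 at 3.01 to 3.96 with the Pvt1 guide and 3.29 to 4.23 with the control guide.

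Replicate number, with 2 degrees of freedom against 1 for the guide, held the larger share of the variance of log2 values for each of the 7 genes and for 91.1% of all tested genes. With guide and replicate number in 1 limma model, levels of 5 of the 7 genes differed between replicate numbers at an adjusted p under 0.05, where 48.6% of tested genes did. These were Mdm2 (limma adjusted p = 1.92e-04), Ccng1 (3.01e-04), Mdm4 (0.00154), Ppm1d (0.0225) and Trp53 (0.0336). Rchy1 (0.0625) and Usp7 (0.442) did not pass. Replicate number held 93.8% of the variance for Mdm2 and 92.3% for Ccng1, with 3.29% and 6.31% for the guide. For Trp53 these shares were 56.4% and 22.4%, and the medians over all tested genes were 80.5% and 3.94%. With 2 libraries per number, the shares describe these libraries. Limma without a trend in the variance called Mdm2 and Ccng1 alone of the 7 (4328 genes in all, against 7022).

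The genes did not follow 1 order across replicates. Averaged over both guides, Mdm2 stood at 634, 633 and 519 CPM in replicates 1, 2 and 3. Ccng1 was high in replicate 1 (1702, 1442 and 1406 CPM), and Ppm1d had its highest mean there too (24.0, 22.5 and 20.3 CPM). Trp53 (155, 176 and 165 CPM) and Mdm4 (43.5, 53.5 and 46.1 CPM) were both lowest in replicate 1 and highest in replicate 2. Replicate 1 was also where macrophage markers were highest, as given above, and their part in these levels was not tested.

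**Figure D5:**
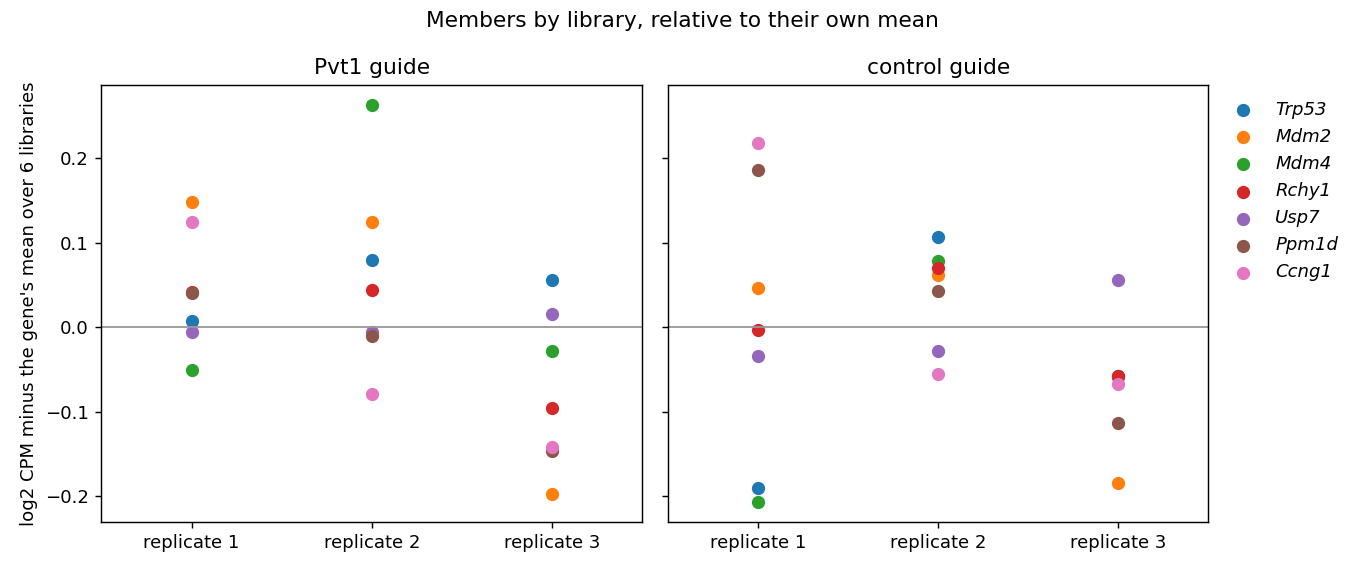
Log2 CPM of each gene minus its mean over the 6 libraries, by replicate number, for the Pvt1 guide (left) and the control guide (right). Ccng1 lies highest or close to it in replicate 1 and Mdm2 lowest in replicate 3 with either guide, while Usp7 stays near 0.

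Across the 6 libraries, which share guide and replicate effects, log2 levels of Trp53 and Mdm2 had a Pearson r of 0.10. The highest r among pairs of the set were 0.92 for Mdm2 and Rchy1, 0.86 for Ppm1d and Ccng1, and 0.81 for Trp53 and Mdm4. The lowest were −0.83 for Ppm1d and Usp7, −0.74 for Trp53 and Ccng1, and −0.73 for Mdm2 and Usp7. These values describe 6 libraries in which equal replicate numbers go together. Of 10398 other genes with a mean of at least 5 CPM, the 3 most like Trp53 over the 6 libraries were Setd7 (r = 0.998), Trak1 (0.983) and Mecr (0.982). Setd7, a lysine methyltransferase, stood at 98.6, 102 and 101 CPM with the Pvt1 guide and at 91.8, 103 and 96.1 CPM with the control guide. The 3 most like Mdm2 were Rprd1b (r = 0.995), Snrpn (0.994) and Hcfc2 (0.994). For Trp53 and for Mdm2 these are the highest of 10398 values of r, each from only 6 libraries. Whether a search of this size alone gives such values was not tested.

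Beyond the 7 genes, 7 lists of genes around p53 held 101 genes, of which 98 were tested. By limma, blocked or not, and by edgeR, 0 of the 98 passed. At an unadjusted p under 0.05 there were 0 without the block, where 0.346% of all tested genes were, and 6 with it, where 6.68% were, so the lists held no larger share than the table as a whole. Of the 98, 67 lay above 0, where 49.7% of all tested genes did. The median log2 fold changes of the lists ran from 0.00 to 0.07, beside 0.00 over all tested genes. The median size of a change over all tested genes was 0.05. All these signs come from the same 6 libraries, so they are not independent, and no test was run on their number. Between replicate numbers 65.3% of the 98 differed, and 48.6% of all tested genes.

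Among inhibitors of Mdm2, the Arf locus and ribosomal or nucleolar proteins, 10 of 11 tested genes lay above 0 with a median log2 fold change of 0.04. The most abundant were Npm1, a nucleolar chaperone (466 ± 27.8 CPM with the Pvt1 guide and 452 ± 16.6 with the control guide, SD, n = 3 each), Ncl, or nucleolin (459 CPM with the Pvt1 guide, 436 with the control guide), and Rpl23, a ribosomal protein (445 CPM with the Pvt1 guide, 433 with the control guide). Other p53 ligases and deubiquitinases gave 11 of 15 above 0 and a median of 0.03. They were led by the ligase Huwe1 at 358 ± 112 CPM with the Pvt1 guide and 331 ± 67.2 with the control guide (SD, n = 3 each). Acetylases, deacetylases and methylases of p53 gave 9 of 11 above 0 and a median of 0.07, with the acetylase Ep300 at 91.1 CPM with the Pvt1 guide and 86.2 with the control guide. Hdac1, a deacetylase, stood at 90.2 CPM with the Pvt1 guide and 89.0 with the control guide.

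Kinases upstream of p53 gave 8 of 12 above 0 and a median of 0.02, led by the casein kinase gene Csnk1a1 (235 CPM with the Pvt1 guide, 234 with the control guide). Phosphatases gave 6 of 9 and 0.01, led by Ppp2r1a, the PP2A scaffold (268 CPM with the Pvt1 guide, 265 with the control guide). Binding partners and family members of p53 gave 6 of 10 and 0.01, with the stress gene Trp53inp1 at 306 ± 65.7 CPM with the Pvt1 guide and 304 ± 60.9 with the control guide (SD, n = 3 each). Of 30 p53 target genes outside the loop, 17 lay above 0 and 13 below, with a median of 0.00. The cell cycle inhibitor Cdkn1a stood at 1395 ± 165 CPM with the Pvt1 guide and 1334 ± 134 with the control guide (SD, n = 3 each). The death gene Pmaip1 stood at 428 ± 47.3 CPM with the Pvt1 guide and 474 ± 54.6 with the control guide (SD, n = 3 each). It was lower with the Pvt1 guide in 3 of 3 pairs, as were 14.4% of tested genes. Its log2 fold change was −0.145, with an unadjusted limma p of 0.0015 and a limma adjusted p of 0.557 in the blocked fit.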

How the data were processed

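Polyadenylated RNA of MEFs was sequenced with a strand-specific kit, per the labels' protocols. The submitters' processing notes name build mm10 and, without roles, edgeR 3.22.3, HTSeq 0.6.1, StringTie 1.2.4 and TopHat2 2.0.14. The authors deposited CPM per gene and library, an edgeR output per the file headers. All entries of a library sum to between 989489 and 1011370 CPM, so the scaling was not by the plain read total. The authors' log2 fold change, p-value and false discovery rate were deposited beside them, with no test named. The 6 further per-sample columns of pseudo-counts were not used. Of 16427 entries, 2 name no gene (0.543% to 1.58% and 8.06% to 8.94% of a library) and were removed.

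Each CPM divided by the worth of 1 read gave whole numbers within 0.01 for 100% of values. The main test was limma 3.58.1 (trend, robust) on log2(CPM + 0.5) for the 14440 genes at or above 0.5 CPM in 3 or more libraries, without a block. Equal replicate numbers pair the libraries, from the data: deviations from group means correlated at 0.869, 0.739 and 0.817 across genes for equal numbers. For other numbers the values ran from −0.706 to 0.203. Deviations sum to 0 within a group of 3, so high values for equal numbers force the others down, and the pairing rests on the equal numbers. The blocked fit is therefore given where it bears on a call or an interval. No label says that replicates are separate cultures, so p-values measure the spread between these libraries, which may be technical. Alternatives used edgeR 4.0.16 and DESeq2 1.42.0 on recovered reads, other scalings, filters and pseudocounts, and left out libraries. Coordinates and lengths are from GENCODE M21 (mm10), and promoter windows from RefSeq. Processed pseudogenes of Trp53 and Mdm4 are annotated, and reads they share are uncertain.

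All 7 genes are named. Of other genes, those called in each list and up to 3 with the highest mean CPM, and the 3 with the highest r with Trp53 and with Mdm2, are named. The genes, lists and tests were chosen with earlier results of these data known. The fits were run on simulated counts that held no replicate effect and changes far larger than those of the 7 genes. That run cannot show how the fits perform on changes of this size or on paired replicates.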

Additional observations from a re-analysis of the deposited data

How the results depend on the processing

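None of the 7 genes passed without the block under any alternative run, nor with it on all 6 libraries. The number of genes called over the whole table, 0 without the block in limma and in edgeR, was 1 with DESeq2 (Pvt1), 5 with the replicate block in limma and 5 with the block in edgeR. Those were Pvt1, Myc, S100a4, Aqp1 and Adcyap1 in both, named after their values were seen. With single libraries or replicate numbers left out it ranged from 0 to 160, the highest in the blocked fit without replicate 2. The number of the 7 genes called ranged from 0 to 1 in the same fits, the 1 being Trp53 in the blocked fit without replicate 2 (log2 fold change 0.16, limma adjusted p = 0.0251). Without replicate 1 or 3, the blocked fit called 8 and 9 genes and 0 of the 7. The cause was not tested. The block changed no other call of the 7. The count of genes differing between replicate numbers was 7022, and 4328 by limma without trend, with other alternatives between 7013 and 7259.

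Of 147 comparisons of the 7 genes with their alternatives, 12 changed sign, all with libraries left out. Log2 fold changes then ranged from −0.029 to 0.16 for Mdm2, −0.14 to 0.029 for Ccng1, −0.037 to 0.040 for Rchy1 and −0.012 to 0.032 for Usp7. Those of Trp53 (0.02 to 0.17), Mdm4 (0.02 to 0.19) and Ppm1d (−0.15 to −0.003) kept their sign. Mdm2 and Ccng1 changed sign only in fits without the block that left out 1 library and kept its partner of equal replicate number. Replicate differences enter those fits. In blocked fits without replicate 1, 2 or 3, Mdm2 gave 0.025, 0.044 and 0.082, and Ccng1 gave −0.049, −0.084 and −0.059. In the blocked fits that changed sign, Usp7 gave −0.0088 without replicate 1 and −0.0059 without replicate 2, and Rchy1 gave 0.0040 without replicate 2 and 0.0092 without replicate 3. Of 48 comparisons of ratios, 7 changed sign, again with a library left out. Its partner of equal replicate number was kept, so replicate differences enter those values. Mdm4 to Mdm2 and Usp7 to Mdm2 were among those that changed, and each had the same sign in all 3 pairs. Log2 differences ranged from −0.13 to 0.071 for Mdm2 to Trp53, −0.035 to 0.19 for Mdm4 to Mdm2, −0.28 to 0.0055 for Ccng1 to Trp53 and −0.17 to 0.061 for Usp7 to Mdm2. Exact sign flips within pairs, the paired form of the ratio tests with the replicate block, gave p of 0.25 or 0.50, where 0.25 is the smallest that 3 pairs allow. Ppm1d and Mdm4 rested on the fewest reads of the 7 genes, 1231 to 1511 and 2376 to 3386 per library.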
